A study of Arabidopsis thaliana with 24 samples.

Results

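Messenger RNA was compared between Arabidopsis thaliana seedlings labelled pif4 and wild-type (WT) seedlings, each with 3 biological replicates, over every gene with enough counts. These are 6 of the 24 samples of the series, taken from the deposited tables whose column names carry the number 28. The tables hold 12 libraries, 3 of each of the genotypes labelled WT, pif4, pkl-1 and pkl-1pif4 (the last pair are called pkl and pklpif4 here). All were made from whole seedlings 9 days old, which per the labels grew in constant white light at 28, followed by a unit that does not read as a temperature. The labels give no allele for pif4, no accession of the wild type and no other treatment. The tables deposited for a red-light experiment hold the same values, so the growth condition rests on the column names. The series concerns PKL, a chromatin remodeller of the CHD3 family, and the pif4 effect was also read in the pkl background (pklpif4 against pkl), in libraries that do not enter pif4 against WT.

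PIF4 is a basic helix-loop-helix (bHLH) transcription factor that phytochrome B in its active form inhibits and targets for breakdown. It binds G-box (CACGTG) and related letters in promoters, and it activates auxin synthesis and response genes, so that hypocotyls and petioles elongate in warmth and in shade. Plants without PIF4 stay short at warm temperatures.

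The 3 WT libraries held 37762216 to 56492669 counts and the 3 pif4-labelled ones 40168802 to 47237160. Levels are normalised CPM, counts scaled to a common library size with TMM factors. Genes were tested with edgeR's quasi-likelihood test, a gene was called at an adjusted p under 0.05, and an error after a log2 change is its SE. Replicates of a group differed by 1.70 to 1.84 times the variance that counting gives in both groups, and no library of the 6 stood apart. In whole seedlings, fewer cells of a type and less RNA per cell cannot be told apart, and the p-values measure the spread between these libraries.

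The PIF4 transcript was higher, not lower, in the libraries labelled pif4. PIF4 (AT2G43010; chromosome 2, 17886427 to 17889050, TAIR10, as in the deposited table) had 105, 99.996 and 96.0 CPM in the WT libraries and 178, 172 and 172 CPM in the pif4-labelled ones. The groups did not overlap, and the log2 change was 0.79 ± 0.03, adjusted p = 8.02e-42. A loss of the transcript would have lowered this count. A gene count does not show whether the transcript is whole, so it neither bears out nor contradicts the label, and every direction below rests on the libraries as labelled.

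Of the 5 genes on either side of PIF4, 3 were called, all of them higher, where 32.5% of all tested genes were called in either direction. PAO2 (AT2G43020; chromosome 2, 17891503 to 17894635), which encodes a polyamine oxidase and is the next gene downstream on the same strand, had 25.6, 21.0 and 26.7 CPM in the WT libraries and 161, 163 and 153 CPM in the pif4-labelled ones. The lowest pif4-labelled library stood far above the highest WT library, and the log2 change was 2.70 ± 0.06, adjusted p = 1.67e-21. The overlapping gene model AT2G43018 had the same count as PAO2 in every library, so the models cannot be told apart. On the other side, NAC042, which encodes a NAC transcription factor, had only 0.253, 0.407 and 0.270 CPM in the WT libraries and 0.513, 0.969 and 0.769 CPM in the pif4-labelled ones, with no overlap between groups (log2 change 1.28 ± 0.45, adjusted p = 0.019), but the call was lost without WT replicate 1 (adjusted p = 0.0853), WT replicate 3 (adjusted p = 0.0591) or pif4-labelled replicate 2 (adjusted p = 0.122). The ribosomal protein gene AT2G43030, which follows PAO2, did not pass, with a log2 change of 0.05 ± 0.02 (adjusted p = 0.0759), though it passed in 5 alternatives with adjusted p from 0.00105 to 0.038. AT2G42975, AT2G42980, AT2G42990, NPG1 and ATPMEPCRD did not pass either, with adjusted p from 0.0798 to 0.973, except that AT2G42980 passed without WT replicate 2 (adjusted p = 0.00373). The tRNA gene AT2G42970 had 0 counts in all 6 libraries. The counting program's strand setting is not given in the sources used here, so transcription from either strand of this region would be counted alike if strand was ignored.

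**Figure D1:**
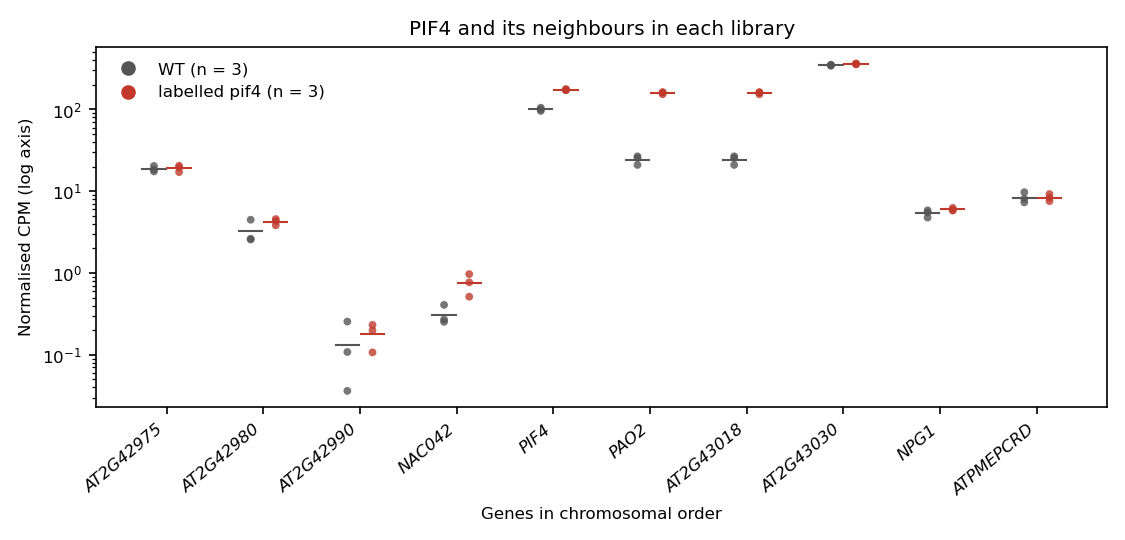
Normalised CPM (log axis) of PIF4 and of the neighbouring genes with any count, in chromosomal order. Points are libraries (3 per group), short lines are group means. PIF4, PAO2 and the overlapping AT2G43018 stand higher in all 3 pif4-labelled libraries, while the gene that follows them, AT2G43030, has nearly the same level in both groups.

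Across the genome many genes differed by a little and few by much. Of 22130 tested genes, 7184 (32.5%) were called, 3590 higher (16.2%) and 3594 lower (16.2%). The counts of higher and lower members of each list below stand beside these shares. Higher genes made up 49.97% of the calls, or 61.2% when libraries were scaled by their totals alone. Of the called genes, 67.0% changed by less than 1.5-fold. At least 2-fold changes were called for 859 genes higher (3.88%) and 516 lower (2.33%). Strong changes in both directions were mostly of rare transcripts. Of the 859 strong rises, 206 reached a mean of 5 CPM in the pif4-labelled libraries and 23 reached 50 CPM. Of the 516 strong falls, 187 had at least 5 CPM in WT and 48 at least 50 CPM. Genes with a 2-fold call made up 6.21% of the tested genes, and 5.66% to 6.99% on each of chromosomes 1 to 5.

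The genes known to depend on PIF4 for growth were lower in the pif4-labelled libraries. Of 31 tested members of this list, 27 fell and 1 rose, where 16.2% of all tested genes were called lower and 16.2% higher. The list was written with earlier results of these data known, so its counts are a description and not an independent test. Their median log2 change was -1.18, against a median of 0.00014 over all tested genes. Of the 27, 18 fell at least 2-fold. In 29 of the 31 the libraries of the groups did not overlap, as in 42.1% of all tested genes.

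Among the bHLH partners of this pathway, HFR1 encodes a protein that binds PIF4 and blocks it, and PIL1 encodes a relative of the PIFs that is quickly induced by shade. HFR1 had 87.9, 82.7 and 85.1 CPM in the WT libraries and 12.6, 12.5 and 12.98 CPM in the pif4-labelled ones. PIL1 had 8.34, 8.20 and 9.62 CPM in the WT libraries and 1.605, 1.62 and 1.17 CPM in the pif4-labelled ones. Both were several-fold lower in each pif4-labelled library than in any WT library, and the log2 changes were -2.75 ± 0.06, adjusted p = 8.04e-70, and -2.56 ± 0.15, adjusted p = 9.77e-30. The PRE genes, which encode small bHLH proteins without DNA binding that promote elongation, fell by 1.18 ± 0.11 (PRE6), 1.18 ± 0.44 (PRE5) and 0.72 ± 0.21 (PRE1) on the log2 scale. PRE5 was near 1 CPM in WT (adjusted p = 0.0271), but the call was lost without WT replicate 1 (adjusted p = 0.0733), WT replicate 3 (adjusted p = 0.127) or pif4-labelled replicate 2 (adjusted p = 0.16), and for PRE1 the call was lost without WT replicate 2 (log2 change -0.40, adjusted p = 0.217).

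Auxin synthesis and response genes made up the next group. The Aux/IAA repressor gene IAA29 had 7.14, 6.57 and 7.27 CPM in the WT libraries and 0.899, 0.737 and 0.546 CPM in the pif4-labelled ones, and IAA19, of the same family, had 6.98, 7.79 and 7.05 CPM in the WT libraries and 1.498, 2.82 and 1.74 CPM in the pif4-labelled ones. No library of one group came near the other, with log2 changes of -3.25 ± 0.18, adjusted p = 3.45e-32, and -1.84 ± 0.15, adjusted p = 9.46e-20. YUCCA enzymes make auxin from indole-3-pyruvate, and YUC8 had 4.47, 4.97 and 3.57 CPM in the WT libraries and 2.33, 2.46 and 1.94 CPM in the pif4-labelled ones (log2 change -0.95 ± 0.16, adjusted p = 7.54e-07). YUC9 fell by 1.19 ± 0.22 and YUC2 by 0.62 ± 0.21 on the log2 scale, and for YUC2 the call was lost without WT replicate 3 (adjusted p = 0.0523), pif4-labelled replicate 2 (log2 change -0.31, adjusted p = 0.312) or on log2(FPKM + 1) (log2 change -0.38, adjusted p = 0.0778). TAA1, the gene of the aminotransferase that feeds them, did not pass, at from 4.98 ± 0.695 to 5.11 ± 0.447 CPM. CYP79B2, which makes indole-3-acetaldoxime, was the 1 member that rose, from 33.6 ± 1.39 to 40.5 ± 2.32 CPM (log2 change 0.27 ± 0.06, adjusted p = 3.51e-05).

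The SAUR19 to SAUR24 genes, whose small proteins keep the plasma membrane proton pump active during cell expansion, all fell, by 1.63 to 2.60 on the log2 scale. SAUR19 had 6.91, 6.54 and 5.81 CPM in the WT libraries and 0.727, 1.496 and 0.943 CPM in the pif4-labelled ones, and SAUR22 had 7.87, 7.89 and 8.46 CPM in the WT libraries and 1.11, 1.77 and 1.49 CPM in the pif4-labelled ones. The groups were apart in each of the 6 genes, but these genes are near copies in tandem and their separate counts are uncertain.

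Homeobox-leucine zipper genes of the shade response fell unequally. HB-2 had 34.5, 36.8 and 34.1 CPM in the WT libraries and 12.9, 10.8 and 11.5 CPM in the pif4-labelled ones (log2 change -1.58 ± 0.07, adjusted p = 5.88e-40). HB4 fell by 2.06 ± 0.25, HAT2 by 0.83 ± 0.08 and HAT3 by 0.69 ± 0.08, whereas HAT1 did not pass (-0.10 ± 0.07, adjusted p = 0.282).

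Hormone enzymes and wall genes completed the list. ST2A, the gene of a sulfotransferase that acts on hydroxyjasmonate, had 30.4, 32.4 and 31.9 CPM in the WT libraries and 4.62, 3.62 and 3.23 CPM in the pif4-labelled ones. ACS8, which encodes an enzyme of ethylene synthesis, had 3.55, 2.98 and 4.16 CPM in the WT libraries and 0.556, 0.253 and 0.496 CPM in the pif4-labelled ones. Both were lower in all 3 pif4-labelled libraries, with log2 changes of -3.04 ± 0.09, adjusted p = 1.39e-52, and -3.03 ± 0.24, adjusted p = 2.72e-21. The expansin gene EXPA8 fell from 73.6 ± 3.99 to 35.2 ± 1.86 CPM and the xyloglucan enzyme gene XTH15 from 51.5 ± 1.81 to 38.9 ± 0.928 CPM. BAS1, whose cytochrome P450 inactivates brassinosteroids, fell by 0.46 ± 0.09 on the log2 scale. LNG1 and LNG2, which act on polar cell elongation, fell by 0.18 ± 0.06 and 0.57 ± 0.04, and for LNG1 the call was lost without WT replicate 2 (adjusted p = 0.163), pif4-labelled replicate 1 (adjusted p = 0.134), with library totals (adjusted p = 0.0665) or on log2(FPKM + 1) (adjusted p = 0.165). CKX5, a cytokinin oxidase gene, did not pass (-0.13 ± 0.10, adjusted p = 0.342). FT, which encodes the mobile flowering signal, had too few counts to be tested, with 41 in the 3 WT libraries together and 4 in the pif4-labelled ones, a ratio of 10.5-fold (95% interval 2.62 to 94.4, counting error only).

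**Figure D2:**
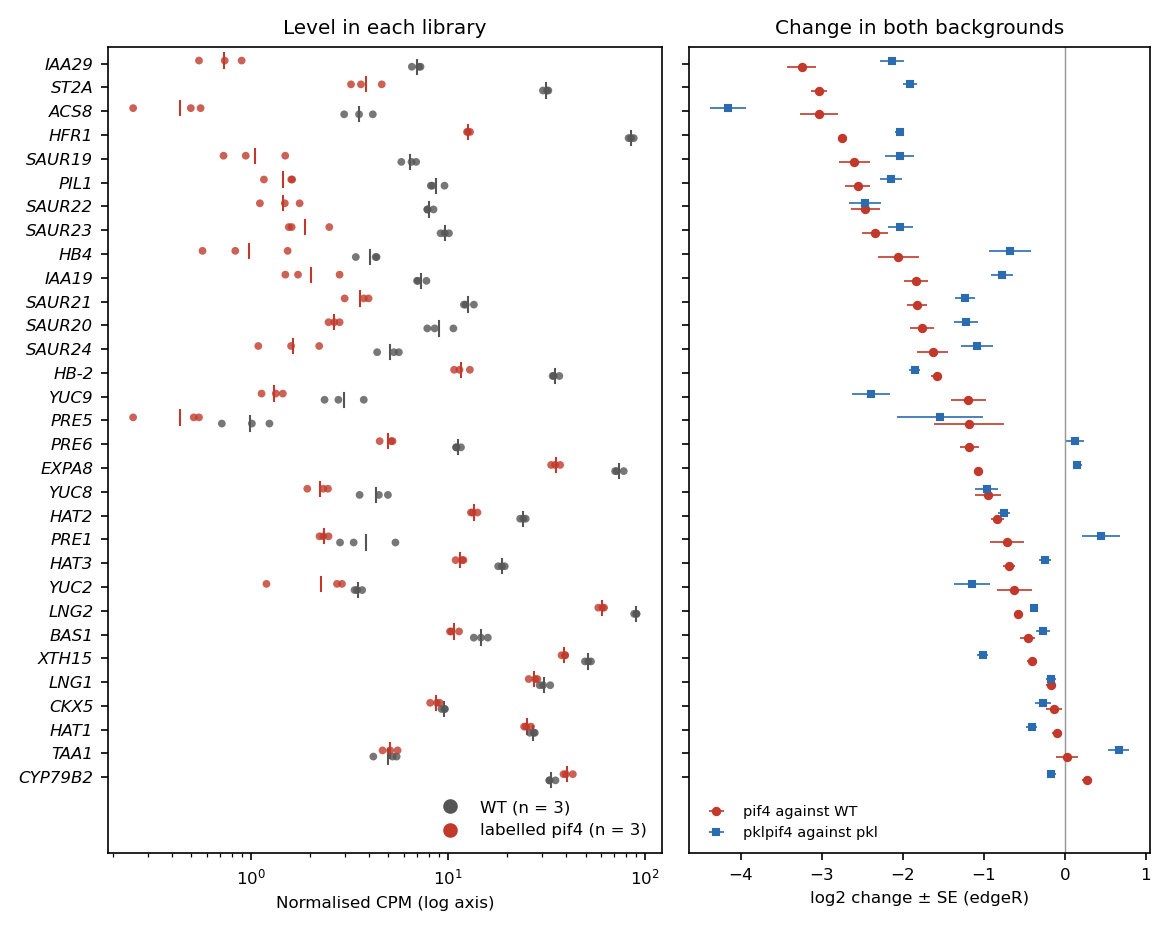
The 31 tested PIF4-dependent growth genes. Left, normalised CPM (log axis) in each of the 3 libraries per group, with group means as short lines. Right, log2 change ± SE (edgeR) of pif4 against WT (circles) and of pklpif4 against pkl (squares). From IAA29 at the top (-3.25) the falls shrink down to CYP79B2, the member that rose, and the squares lie left of 0 for most genes but not for PRE6, EXPA8, PRE1 and TAA1.

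The promoters of these genes were read for the letters that PIF proteins are known to bind, the G-box CACGTG and the PBE letters CATGTG on either strand (CACATG on the other). The window ran from 250 bases before to 50 after the start of each gene in RefSeq's annotation (TAIR10.1). CATGTG stood in 12 of 31 growth-gene promoters and in 13.1% of all 21694 tested promoters. The 12 include SAUR19, SAUR21 and SAUR22, which are near copies in tandem. The list was made of genes known to depend on PIF4, with earlier results of these data known. CACGTG stood in 1 of the 31, that of IAA19, and in 8.77% of all. Over the genome, CACGTG was in 13.98% of the promoters of genes called lower (496 of 3547) and in 7.32% of those called higher (258 of 3524). For CATGTG these shares were 15.5% and 14.1%. Among genes called at least 2-fold, CACGTG was in 13.6% of the promoters of lower and 9.84% of those of higher genes, and CATGTG in 16.6% and 17.5%. Neither letter string was found in this window for HFR1, PIL1, IAA29, HB-2 or ST2A. A match is a description of letters and does not show a binding site.

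The 250 bases before the start are shown for 4 members that fell and hold a match, with the matching letters in capitals, from RefSeq TAIR10.1 and in the direction of each gene. They are shown because the letters lie close to the starts of genes that fell. The windows are those of IAA19 at chr3:5263751-5264000 (plus strand), YUC8 at chr4:14192319-14192568 (plus), ACS8 at chr4:17751829-17752078 (plus) and SAUR19 at chr5:5963406-5963655 (minus).
IAA19: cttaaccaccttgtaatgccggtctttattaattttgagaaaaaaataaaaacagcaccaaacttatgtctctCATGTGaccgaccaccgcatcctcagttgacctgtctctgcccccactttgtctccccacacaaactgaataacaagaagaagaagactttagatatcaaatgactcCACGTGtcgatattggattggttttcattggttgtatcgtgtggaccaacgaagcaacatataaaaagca
YUC8: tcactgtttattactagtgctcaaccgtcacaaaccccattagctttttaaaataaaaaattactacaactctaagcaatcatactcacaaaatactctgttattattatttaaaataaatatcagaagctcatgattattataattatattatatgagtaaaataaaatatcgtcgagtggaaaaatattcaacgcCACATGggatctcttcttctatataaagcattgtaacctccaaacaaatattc
ACS8: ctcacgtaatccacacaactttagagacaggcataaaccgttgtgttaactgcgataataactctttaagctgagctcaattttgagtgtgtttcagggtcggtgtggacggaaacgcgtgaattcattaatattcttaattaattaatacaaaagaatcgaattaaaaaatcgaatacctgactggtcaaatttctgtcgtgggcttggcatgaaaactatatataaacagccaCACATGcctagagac
SAUR19: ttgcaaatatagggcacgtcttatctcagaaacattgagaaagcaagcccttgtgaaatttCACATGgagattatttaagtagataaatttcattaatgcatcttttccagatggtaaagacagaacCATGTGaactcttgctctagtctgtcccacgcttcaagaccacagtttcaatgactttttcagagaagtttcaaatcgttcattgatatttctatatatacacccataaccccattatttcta
The IAA19 window holds both strings, the SAUR19 window CATGTG on each strand, and the YUC8 and ACS8 windows 1 CACATG each.

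The same label was read in the pkl background, where 8840 of the 22130 genes (39.9%) were called between pklpif4 and pkl, 4312 higher (19.5%) and 4528 lower (20.5%). These comparisons have no library in common but share 1 fit and its estimate of spread. Of the 516 genes at least 2-fold lower in pif4 against WT, 325 were called lower in pklpif4 against pkl and 60 higher, and their median log2 change there was -1.001. Of the 859 genes at least 2-fold higher, 225 were called higher there and 147 lower, and the median there was 0.07. Of the 31 growth genes, 27 were called lower and 2 higher in pklpif4 against pkl, with a median of -1.02, and 24 were called lower in both comparisons. The difference of the effect between backgrounds passed for 19 of the 31, and for 31.9% of all tested genes. In 13 of the 19 the effect was more positive in the pkl background. EXPA8 fell in WT seedlings and rose slightly in pkl (log2 change 0.15 ± 0.05; difference 1.22 ± 0.07, adjusted p = 2.08e-28), and PRE6 and PRE1 fell in WT and did not pass in pkl (differences 1.304 ± 0.16, adjusted p = 1.15e-11, and 1.16 ± 0.32, adjusted p = 0.00207). YUC9 and ACS8 fell further in the pkl background, with log2 changes of -2.40 ± 0.23 and -4.16 ± 0.23 (differences -1.21 ± 0.32, adjusted p = 0.00177, and -1.13 ± 0.36, adjusted p = 0.0108). PIF4 itself rose by 1.17 ± 0.03 and PAO2 by 2.14 ± 0.06 in pklpif4 against pkl.

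Other regulators of light signalling moved by less than HFR1 and PIL1. Of 22 PIF family and light genes, 11 fell and 4 rose, with a median of -0.13. The photoreceptor genes PHYB (-0.59 ± 0.03 on the log2 scale) and PHYA (-0.42 ± 0.02) fell, and PAR1, the gene of another inhibitor of bHLH factors, fell from 20.8 ± 1.04 to 10.5 ± 0.445 CPM. The 4 that rose included PIF4, HY5 (0.32 ± 0.06), whose bZIP factor promotes seedling development in light, and ELF3 (0.38 ± 0.04), of the evening complex that represses PIF4.

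Auxin genes outside the growth list moved both ways. Of 30 in the whole auxin list, 11 fell and 10 rose, with a median of 0.01. GH3.5 and GH3.3, whose enzymes join auxin to amino acids, fell from 124 ± 3.01 to 51.4 ± 2.42 CPM and from 8.62 ± 0.696 to 2.60 ± 0.238 CPM. IAA7 fell by 0.34 ± 0.03 and IAA17 rose by 0.57 ± 0.05 on the log2 scale. PIN2, the gene of an auxin carrier of the root tip, rose from 3.69 ± 0.243 to 11.998 ± 1.17 CPM (log2 change 1.70 ± 0.10, adjusted p = 4.32e-28), and LBD16 and LBD29, which act in lateral root formation, rose by 1.28 ± 0.25 and 2.15 ± 0.54, both from under 1 CPM.

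Gibberellin genes numbered 9 lower and 1 higher of 21, with a median of -0.35 (-0.15 with a filter at 5 CPM and -0.13 on log2(FPKM + 1)). The DELLA repressor genes GAI and RGA fell from 80.1 ± 1.19 to 47.7 ± 2.48 CPM and from 121 ± 2.18 to 89.8 ± 1.78 CPM, and RGL2, of the same family, was the member that rose (0.51 ± 0.11). GA20OX2, of gibberellin synthesis, fell by 0.99 ± 0.19 on the log2 scale, and the gibberellin-regulated peptide genes GASA6, GASA4 and GASA1 fell by 0.67 ± 0.02, 0.60 ± 0.03 and 0.16 ± 0.02.

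Brassinosteroid genes gave 4 higher and 3 lower of 12. The synthesis genes CPD and BR6OX2 fell by 0.28 ± 0.02 and 0.66 ± 0.06, while BR6OX1 rose by 1.03 ± 0.27. Of 26 ethylene genes, 10 fell and 5 rose (median -0.06). The chitin-binding defence gene PR4 fell from 58.7 ± 1.17 to 25.9 ± 1.51 CPM, and ACO1, whose enzyme makes ethylene, rose by 1.501 ± 0.15. Of 22 expansin and xyloglucan enzyme genes, 15 fell and 3 rose, with a median of -0.20. XTH22 and XTH23 fell from 79.2 ± 3.70 to 40.7 ± 0.878 CPM and from 90.7 ± 3.88 to 45.2 ± 2.37 CPM, and EXPA16 and EXPA11 fell by 0.89 ± 0.09 and 0.54 ± 0.06 on the log2 scale. XTH17, EXPA15 and XTH24 rose by 0.55 ± 0.08, 0.43 ± 0.10 and 0.12 ± 0.02.

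Of 41 tested jasmonate genes, 22 fell, 15 of them at least 2-fold, 6 rose and 13 did not pass, with a median of -0.32 (-0.13 with a filter at 5 CPM, -0.21 on log2(FPKM + 1)). Jasmonate is made from linolenic acid in the chloroplast, and LOX2, the lipoxygenase gene of the first step, had 129, 133 and 133 CPM in the WT libraries and 59.7, 55.3 and 52.2 CPM in the pif4-labelled ones. The groups were well apart (log2 change -1.24 ± 0.03, adjusted p = 1.95e-60). AOC2 and AOS, of the following steps, fell by 0.998 ± 0.08 and 0.32 ± 0.05. JRG21, which encodes an oxygenase of the 2-oxoglutarate and Fe(II)-dependent kind, had 57.1, 57.7 and 58.8 CPM in the WT libraries and 2.48, 1.75 and 1.56 CPM in the pif4-labelled ones. Its relative AT5G05600 fell from 43.0 ± 0.737 to 4.36 ± 0.802 CPM and AT2G38240, of the same enzyme family, from 28.09 ± 2.99 to 0.121 ± 0.0690 CPM. Among response genes, VSP2, of vegetative storage protein, fell by 1.12 ± 0.10, NAC019 by 3.02 ± 0.29 and the repressor gene JAZ10 by 1.58 ± 0.17 on the log2 scale. MYC2 and MYC4, which encode bHLH activators of the pathway, rose by 0.41 ± 0.05 and 0.40 ± 0.05, and the receptor gene COI1 by 0.15 ± 0.05.

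In the salicylic acid and immunity list 14 of 30 genes fell and 6 rose, with a median of -0.55 (-0.16 on log2(FPKM + 1)). Large falls were seen in a tandem group of lipid-transfer type genes linked to systemic resistance. EARLI1 had 112, 118 and 115 CPM in the WT libraries and 5.54, 5.18 and 4.52 CPM in the pif4-labelled ones, and AZI1 had 61.2, 63.0 and 62.4 CPM in the WT libraries and 8.79, 6.57 and 8.63 CPM in the pif4-labelled ones. AT4G12490, of the same family, had 4426 counts over the WT libraries and 2 over the pif4-labelled ones, a ratio of 2263-fold with a 95% interval from 406 to 89411 (counting error only). These genes are close copies and their separate counts are uncertain. ELI3-1 and ELI3-2, annotated as cinnamyl alcohol dehydrogenases, fell from 130.4 ± 2.11 to 55.0 ± 0.945 CPM and from 16.2 ± 0.648 to 0.0497 ± 0.0539 CPM. DMR6, a salicylic acid hydroxylase gene that holds immunity down, fell by 0.85 ± 0.06. The genes EDS5 and PAD4, which act in salicylic acid export and immune signalling, rose by 0.55 ± 0.13 and 0.36 ± 0.10, and FMO1, of N-hydroxypipecolic acid synthesis, rose from 0.118 ± 0.0911 to 0.841 ± 0.387 CPM. PR1 and PR2 had too few counts to be tested. In the camalexin list, which also holds the indolic glucosinolate gene CYP81F2, 3 of 4 genes fell. These were CYP71A12 (-2.91 ± 0.36), PAD3 (-1.50 ± 0.33) and CYP81F2 (-0.71 ± 0.22), all at low levels. For CYP81F2 the call was lost on log2(FPKM + 1) (adjusted p = 0.0528).

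Genes of aliphatic glucosinolates, the defence compounds made from methionine, numbered 15 lower and 2 higher of 22, with a median of -0.49. MAM1, of the side-chain elongation step, had 101, 102 and 105 CPM in the WT libraries and 54.3, 50.1 and 50.9 CPM in the pif4-labelled ones, while MAM3, of the same step, had 7.33, 7.92 and 8.11 CPM in the WT libraries and 29.1, 30.2 and 31.3 CPM in the pif4-labelled ones. The groups were apart in opposite directions (log2 changes -0.99 ± 0.05, adjusted p = 7.31e-38, and 1.96 ± 0.08, adjusted p = 2.93e-43). BCAT4 and CYP83A1, which act before and after elongation, fell by 0.96 ± 0.07 and 0.83 ± 0.05. CYP79F1 fell by 1.86 ± 0.11 and CYP79F2 rose by 0.45 ± 0.11, but they are near copies side by side and their counts are uncertain. The indolic glucosinolate and myrosinase list gave 10 higher and 3 lower of 18, with a median of 0.20 (0.11 with a filter at 5 CPM). CYP81F2, which fell, was counted in the camalexin list above and not in this one. The methyltransferase gene IGMT1 rose from 38.5 ± 0.247 to 69.1 ± 2.17 CPM, the cytochrome P450 gene CYP81F4 by 0.73 ± 0.05 on the log2 scale, and the root myrosinase gene TGG4 from 3.495 ± 0.516 to 12.8 ± 0.446 CPM. The leaf myrosinase genes TGG1 and TGG2 fell by 0.11 ± 0.02 and 0.18 ± 0.02.

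In the abscisic acid and cold list 25 of 34 genes fell and 0 rose, with a median of -0.44. P5CS1, of proline synthesis, had 352, 339 and 345 CPM in the WT libraries and 119.8, 126 and 119 CPM in the pif4-labelled ones. RD20, a caleosin gene induced by drought, had 49.7, 52.9 and 51.5 CPM in the WT libraries and 8.11, 8.62 and 7.92 CPM in the pif4-labelled ones. In both the groups were far apart (log2 changes -1.51 ± 0.03, adjusted p = 7.87e-73, and -2.64 ± 0.07, adjusted p = 4.18e-60). HAI1 and ABI1, whose phosphatases hold abscisic acid signalling down, fell from 28.7 ± 2.23 to 11.99 ± 0.377 CPM and from 67.5 ± 2.19 to 44.2 ± 1.67 CPM. ABF3, a transcription factor gene of the response, fell by 0.49 ± 0.03 and the dehydrin gene ERD10 by 0.77 ± 0.05. The 9 others did not pass.

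Heat shock genes numbered 18 lower and 3 higher of 31, with a median of -0.29 (-0.07 with a filter at 5 CPM). Of the 18, 10 fell at least 2-fold, among them small heat shock protein genes, chaperones with low levels here. HSP17.6A had 2.44, 2.32 and 3.32 CPM in the WT libraries and 0.257, 0.295 and 0.298 CPM in the pif4-labelled ones, and HSP17.6II had 2.60, 2.75 and 3.24 CPM in the WT libraries and 0.599, 0.147 and 0.347 CPM in the pif4-labelled ones. Neither overlapped between groups. HSP17.4 fell from 4.34 ± 0.317 to 1.12 ± 0.288 CPM, and AT1G53540 and AT2G29500, 2 further members, fell by 3.87 ± 0.30 and 1.83 ± 0.19 on the log2 scale. The heat shock factor gene HSFA7A was among the 3 that rose (from 7.81 ± 0.372 to 14.6 ± 0.534 CPM). Another of the 3 rose at least 2-fold. Over the tested members the log2 changes ran from -7.71 to 4.93, so the genes named here do not include the extremes.

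Markers of root and root hair were higher and those of green tissue lower. Of 29 root markers, 24 rose and 1, MIOX4, fell, with a median of 0.81 (0.54 on log2(FPKM + 1)). For MIOX4, from under 1 CPM, the call was lost without WT replicate 1 (adjusted p = 0.0547). Summed over the list they made up 186 to 193 CPM in WT and 282 to 283 CPM in the pif4-labelled libraries. PER64 and ESB1, which act in lignin of the Casparian strip, both rose, PER64 from 5.10 ± 0.688 to 12.5 ± 0.448 CPM and ESB1 from 16.6 ± 0.847 to 27.4 ± 1.25 CPM, and CASP1, which organises that strip, had 6.204, 5.88 and 6.11 CPM in the WT libraries and 13.6, 12.5 and 13.5 CPM in the pif4-labelled ones. The root hair wall genes LRX1 and PRP3 rose by 0.88 ± 0.09 and 0.76 ± 0.06. Low members rose as well, such as RHD6, of root hair fate (from 0.290 ± 0.208 to 1.103 ± 0.262 CPM). WOX5, the marker of the quiescent centre, did not pass (adjusted p = 0.868).

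Genes of the uptake and use of iron, nitrate, sulfate and phosphate rose more often than they fell. Of 31 iron genes, 16 rose and 4 fell, with a median of 0.32. IRT1, the iron transporter gene, had 13.9, 14.6 and 15.2 CPM in the WT libraries and 53.4, 49.8 and 47.0 CPM in the pif4-labelled ones, and FRO2, of the ferric chelate reductase, had 6.96, 7.46 and 6.46 CPM in the WT libraries and 27.1, 24.9 and 26.1 CPM in the pif4-labelled ones. All pif4-labelled libraries were above all WT libraries (log2 changes 1.79 ± 0.07, adjusted p = 1.02e-42, and 1.90 ± 0.09, adjusted p = 1.44e-35). F6'H1 and ABCG37, which make and export coumarins that mobilise iron, rose by 2.01 ± 0.17 and 0.88 ± 0.04. FER1, of the iron store ferritin, fell by 0.33 ± 0.03, and NAS3, BTS and OPT3 by 1.51 ± 0.40, 0.17 ± 0.03 and 0.14 ± 0.03. Of 21 nitrate, sulfate and phosphate genes, 17 rose and 1, SULTR2;1, fell, with a median of 0.56. The nitrate reductase gene NIA1 had 406, 412 and 411 CPM in the WT libraries and 713, 713 and 697 CPM in the pif4-labelled ones (log2 change 0.79 ± 0.02, adjusted p = 2.91e-59), and NIR1, of the nitrite reductase, rose from 257 ± 6.42 to 359 ± 7.94 CPM. The phosphate genes PHO1 and PHT1;1 rose by 0.95 ± 0.05 and 0.81 ± 0.05, the sulfur genes SDI1 and APR3 by 1.65 ± 0.14 and 0.43 ± 0.04. The part of the higher root markers in these rises was not tested.

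Photosystem antenna and Rubisco small subunit genes numbered 20 lower and 1 higher of 22, with a median of -0.32. Their summed level was 69410 to 70605 CPM in WT and 60810 to 61499 CPM in the pif4-labelled libraries. LHCB3, a protein of the trimeric antenna of photosystem II, had 2056, 2046 and 2052 CPM in the WT libraries and 1322, 1346 and 1363 CPM in the pif4-labelled ones (log2 change -0.61 ± 0.02, adjusted p = 1.69e-58). LHCB2.3 fell from 399.9 ± 1.37 to 181 ± 2.09 CPM and LHCA4, of photosystem I, from 3049 ± 41.4 to 2274 ± 24.2 CPM, and RBCS1B rose from 2022 ± 29.6 to 2507 ± 23.55 CPM. LHCB1 and RBCS genes are close copies, so their separate counts are uncertain. Chlorophyll and greening genes numbered 15 lower and 2 higher of 21, with a median of -0.16. HEMA1 and GUN5, of early steps of chlorophyll synthesis, fell by 0.24 ± 0.02 and 0.14 ± 0.01, PORC by 0.30 ± 0.04 and GLK1, the gene of an activator of photosynthesis genes, by 0.50 ± 0.04. CHLM and GLK2 rose by 0.10 ± 0.02 and 0.15 ± 0.03. The part of the root markers in these falls was not tested.

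**Figure D3:**
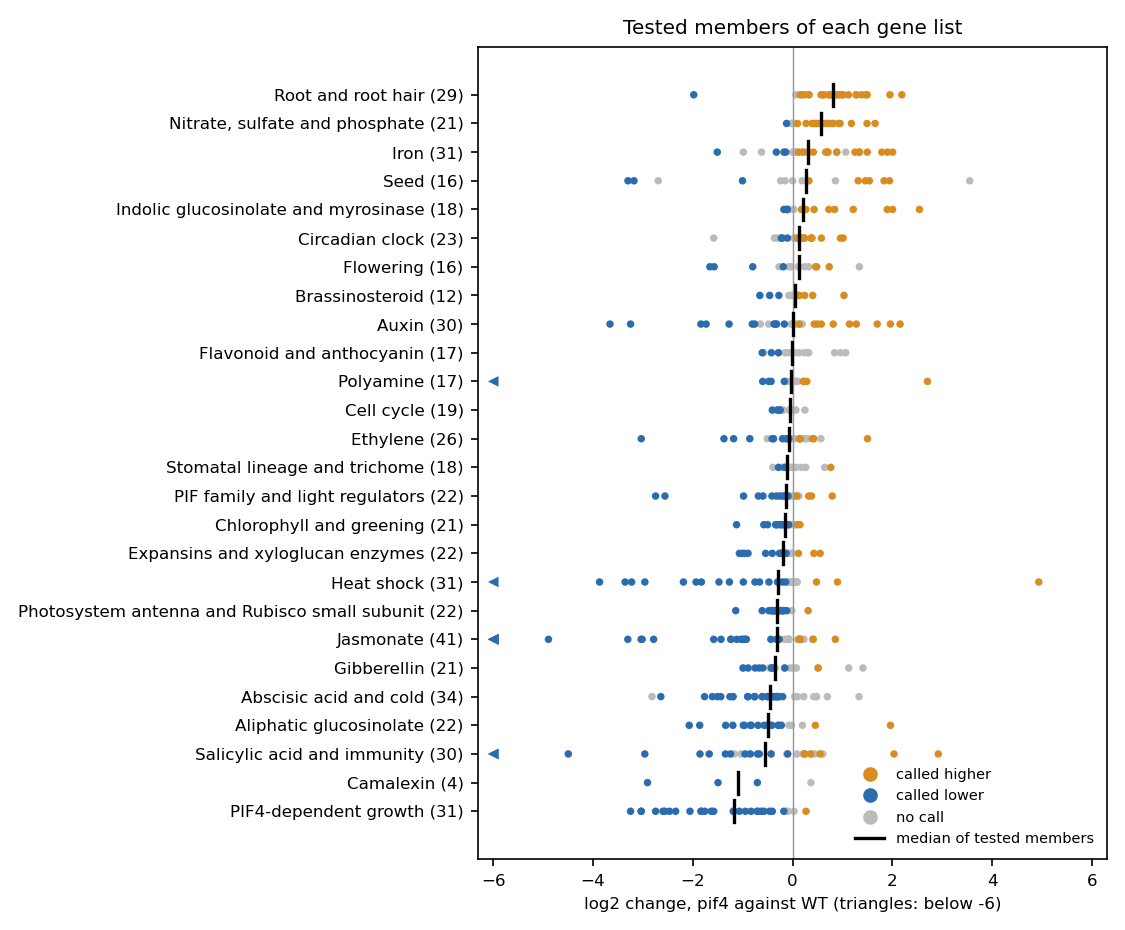
The log2 change of pif4 against WT for each tested member (point) of the gene lists with 4 or more tested members, with the number tested in parentheses and the median as a black bar. Triangles at the left edge stand for members below -6. Root markers (median 0.81) and the PIF4-dependent growth genes (-1.18) stand at opposite ends.

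Several of these groups moved otherwise in the pkl background. All 22 photosystem genes rose in pklpif4 against pkl (median 0.67), and the difference between backgrounds passed for all 22. Of the chlorophyll genes 16 rose and 4 fell there, and the difference passed for 19 of 21. Of the 29 root markers 6 rose and 11 fell there (median -0.20), and the difference passed for 20, in each case with a more negative effect in the pkl background. For the nitrate, sulfate and phosphate list the difference passed for 17 of 21, again all more negative. All called aliphatic glucosinolate genes fell there, 21 of 22 (median -1.66), and the difference passed for 18. Of the 16 seed genes described below 14 rose there, and the difference passed for 12, all more positive in the pkl background. Of the 41 jasmonate genes 32 fell in pklpif4 against pkl (median -1.14) and 19 fell in both comparisons, and the difference passed for 28, of which 23 were more negative in the pkl background. Of the 34 abscisic acid and cold genes 12 rose and 16 fell there (median -0.06). Heat shock genes gave 12 higher and 12 lower of 31 (median 0.13). Iron genes gave 9 higher and 13 lower of 31 (median -0.19). Indolic glucosinolate and myrosinase genes gave 4 higher and 11 lower of 18 (median -0.14). Salicylic acid and immunity genes gave 4 higher and 13 lower of 30 (median -0.37).

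**Figure D4:**
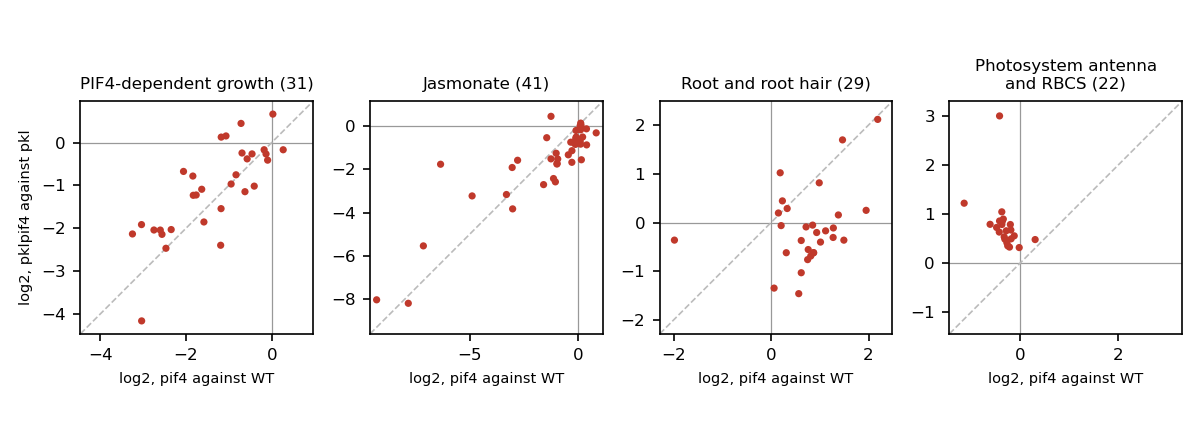
The log2 change in pklpif4 against pkl (vertical axis) against that in pif4 against WT (horizontal axis) for the tested members of 4 lists, with the number tested in parentheses. The dashed line marks equal change. Growth and jasmonate genes lie mostly in the lower left, most root markers lie right of 0 and many of them below it, and photosystem genes lie left of 0 and above it except RBCS1B.

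Of the remaining lists, the clock genes rose more often than they fell, and the others changed little or in mixed directions. Over all tested genes 16.2% were called higher and 16.2% lower, and the small counts below stand beside these shares. Of 23 clock genes 12 rose and 3 fell (median 0.13), with the morning factor gene RVE2 at 0.96 ± 0.03 and the evening gene TOC1 at 0.37 ± 0.06 on the log2 scale, and PRR7, LNK1 and LNK2 falling by 0.23 ± 0.04, 0.21 ± 0.04 and 0.10 ± 0.02. Of 16 seed genes 6 rose and 3 fell (median 0.26, and 0.03 on log2(FPKM + 1)). The globulin gene CRU3 had 17.0, 15.9 and 17.2 CPM in the WT libraries and 1.48, 1.85 and 1.76 CPM in the pif4-labelled ones, a fall in every library (log2 change -3.30 ± 0.07, adjusted p = 4.64e-68), whereas CRA1, of the same family, rose from 30.8 ± 1.33 to 38.8 ± 1.56 CPM and the peroxiredoxin gene PER1 from 3.12 ± 0.527 to 10.9 ± 0.830 CPM. Of 16 flowering genes 4 fell, among them the flowering promoter gene SOC1 (-0.80 ± 0.09) and the floral gene PI (-1.57 ± 0.19), and 3 rose, among them the repressor gene FLC (0.73 ± 0.15). In the flavonoid list 3 of 17 fell, CHS, F3H and MYBL2, by 0.61 ± 0.05, 0.43 ± 0.11 and 0.28 ± 0.07. Of 18 stomatal and trichome genes 2 fell, the receptor kinase gene ER among them (-0.28 ± 0.03), and 1 rose. Of 19 cell cycle genes 4 fell, among them CYCD3;2 (-0.26 ± 0.04) and HIK (-0.41 ± 0.12), and 0 rose. Of 17 polyamine genes 4 rose, PAO2, PAO4, PAO5 and SPDS2, and 5 fell, among them SPMS, of spermine synthesis, by 0.60 ± 0.06. In this list 1 gene rose and 1 fell at least 2-fold. Its lowest log2 change was -9.32, the same value as the lowest of the jasmonate list. Of 3 pollen markers 1 had enough counts to be tested, and it did not pass.

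The 10 largest falls among called genes with at least 5 CPM in WT and no overlap between groups were mostly of genes whose counts almost vanished. AT5G43800.1 (chromosome 5, 17597379 to 17605019) had 5446 counts over the WT libraries, or 40.5, 43.4 and 40.6 CPM. In the pif4-labelled libraries it had 0 counts and was at least 928-fold lower. Its dotted identifier is of the transposon type. Whether the pif4-labelled line holds the same copy of this locus as the wild type was not tested. NATA1, whose enzyme makes acetylornithine, had 2104 counts over the WT libraries and 3 over the pif4-labelled ones, a ratio of 717-fold with a 95% interval from 149 to 4447. SAG13, a gene of senescence and stress, fell from 19.6 ± 0.375 to 0.0874 ± 0.0395 CPM, AIG1, induced by pathogens, from 5.14 ± 0.949 to 0.0589 ± 0.0222 CPM, the thioredoxin gene TH8 from 11.3 ± 0.857 to 0.201 ± 0.147 CPM, and LAS1, which makes lanosterol, from 7.40 ± 1.44 to 0.198 ± 0.0445 CPM. AT4G12490, ELI3-2 and AT2G38240, given above, were also among them, as was NIT2.

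The nitrilase genes NIT1 and NIT2 lie side by side on chromosome 3 and both fell. NIT2 (chromosome 3, 15983311 to 15985535) had 498, 496 and 499.7 CPM in the WT libraries and 12.6, 13.1 and 13.1 CPM in the pif4-labelled ones. The replicates of each group differed by little, and the log2 change was -5.27 ± 0.03, adjusted p = 4.58e-123. NIT1 (chromosome 3, 15986864 to 15989103) had 1452, 1434 and 1428 CPM in the WT libraries and 643, 639.8 and 637 CPM in the pif4-labelled ones (log2 change -1.17 ± 0.02, adjusted p = 1.45e-81). They are close copies, so part of each count may belong to the other.

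The largest rises with at least 5 CPM were smaller, all under 8-fold. Besides PAO2 with AT2G43018 they were AT2G28780, annotated as an efflux pump subunit (from 1.11 ± 0.212 to 8.80 ± 0.366 CPM), the fatty acid desaturase gene FTM1 (from 0.961 ± 0.201 to 7.15 ± 1.19 CPM), the myrosinase-type glucosidase gene BGLU35 (from 2.38 ± 0.283 to 13.7 ± 1.22 CPM) and the lectin gene AT2G25980 (from 2.39 ± 0.904 to 12.3 ± 0.659 CPM). The others were MDHAR, of ascorbate recycling (from 1.62 ± 0.125 to 7.86 ± 0.126 CPM), the late embryogenesis abundant genes AT3G02480 (from 4.43 ± 0.941 to 20.6 ± 0.949 CPM) and LEA18 (from 2.94 ± 0.338 to 13.5 ± 0.877 CPM), and LTP3, of a lipid transfer protein (from 3.05 ± 0.407 to 13.4 ± 0.604 CPM). Their groups did not overlap, which the rule for naming them required.

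**Figure D5:**
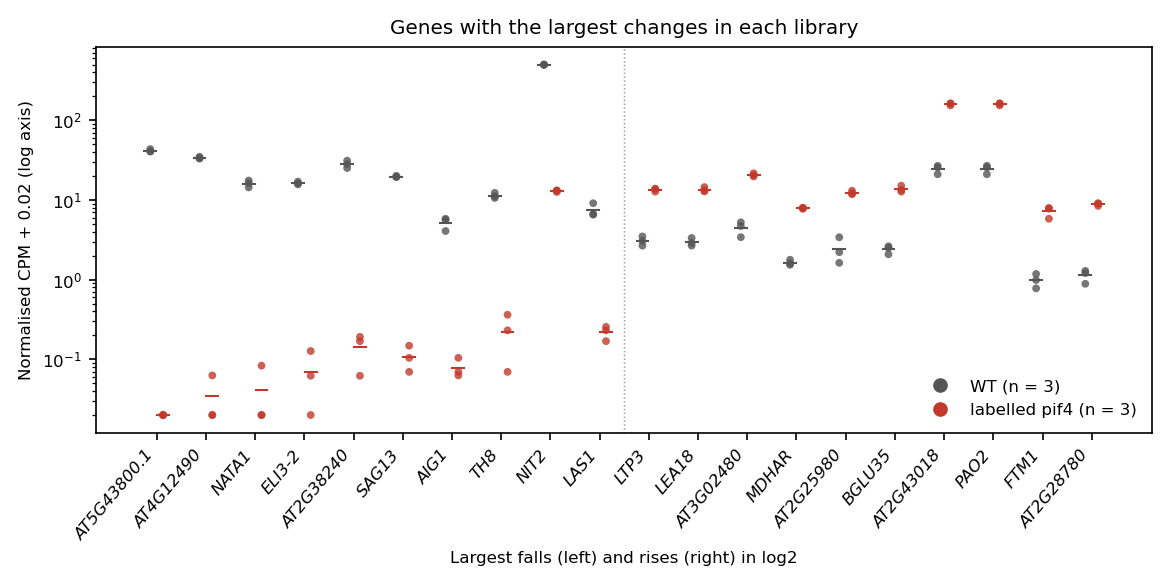
Normalised CPM plus 0.02 (log axis) in each library for the 10 largest falls and the 10 largest rises in log2 among called genes whose groups do not overlap and whose higher group has a mean of at least 5 CPM. Points are libraries (3 per group) and short lines are group means. Except for NIT2, the falls end under 1 CPM in every pif4-labelled library, while the rises start at a level above 0 in WT.

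By absolute amount other genes led. The largest falls in CPM were mostly antenna genes, LHCB1.3, LHCB1.5, LHCA4, LHCB1.1, LHCB3 and LHCB5, with RCA, of Rubisco activase (from 7942 ± 75.0 to 7097 ± 57.0 CPM), NIT1, the catalase 3 gene AT1G20620 (from 1822 ± 24.4 to 1118 ± 13.9 CPM) and ASN1. ASN1, an asparagine synthetase gene known to respond to dark and low sugar, had 1022, 1033 and 1039 CPM in the WT libraries and 387, 387 and 395 CPM in the pif4-labelled ones (log2 change -1.40 ± 0.02, adjusted p = 2.54e-85). The largest rises in CPM were SAG21, a gene of stress and senescence (from 2113 ± 3.47 to 3848 ± 76.7 CPM), PYK10, a root-rich glucosidase of endoplasmic reticulum bodies (from 1687 ± 15.5 to 2365 ± 52.0 CPM), RBCS1B, TCTP (from 1946 ± 45.8 to 2284 ± 54.7 CPM), the isocitrate dehydrogenase gene cICDH (from 1280.2 ± 16.0 to 1609 ± 15.6 CPM), NIA1 and NIA2, the wall protein gene EXT3 (from 300.4 ± 2.29 to 576 ± 14.6 CPM), AT2G45180 and UBQ3. SAG21 had 2109.5, 2112 and 2116 CPM in the WT libraries and 3787, 3824 and 3934 CPM in the pif4-labelled ones, and the groups did not overlap.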

How the data were processed

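Messenger RNA of whole seedlings was measured by RNA sequencing of poly(A) RNA, and 12 libraries of the tables named 28 entered the fit. The submitters' processing notes list fastp, HISAT2 2.1.0, SAMtools 1.6 and the build TAIR10. How reads were counted (program, strand, reads with several matches) is not given in the sources used here. Raw counts per gene were deposited by the authors for 33612 genes. They also deposited FPKM, in which counts are scaled by exon length and library total. Gene positions were taken from the count table. Of its identifiers 28932 were matched to RefSeq (TAIR10.1), which gave names, gene types and promoters.

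Genes passing filterByExpr (minimum count 10, minimum total 15) were tested in edgeR 4.0.16 (R 4.3.3) with a robust quasi-likelihood fit of 4 group means and TMM factors, two-sided, with Benjamini-Hochberg adjustment over 22130 genes and a threshold of 0.05. SEs were derived as the absolute log2 change over the root of the F statistic, since edgeR reports none. The difference between backgrounds is pklpif4 minus pkl, less pif4 minus WT. It was meant to be read for the growth list, PIF4 and PAO2, and its counts for other lists were added after the values were seen. The alternatives were RLE factors, library totals, other filters on low counts, the 6 libraries alone, a replicate block, counts halved to fragments, DESeq2 1.42.0, limma 3.58.1 on log2(FPKM + 1) from the deposited FPKM, and each of the 6 libraries left out.

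Among counts of 1 to 8, 71.9% to 74.3% per library of the 6 were even, against 49.4% to 50.8% of counts above 100, the pattern that counting both mates of a read pair gives. The floor was therefore 3 fragments, or 6 counts over a group. Total counts per library were 37762216 to 56492669, and counting error is all that the intervals and floors cover.

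The members and the 27 gene lists were chosen with earlier results of these data known, and no list was tested as a set. The genes named are PIF4 with 5 genes on each side, the 10 largest rises and falls in log2 (called, groups not overlapping, higher mean at least 5 CPM), the 10 largest rises and falls in CPM, the growth list, and from each other list up to 6 called members with the smallest p and members called the other way. Some of these are given only in the counts, among them marginal members whose calls ended when 1 library was left out. Of the genes this rule names, 1 is not reported here.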

Additional observations from a re-analysis of the deposited data

Results flagged for a closer look

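The effect of the pif4 label was read in WT and in pkl seedlings, and the test of the difference itself (edgeR, adjusted p under 0.05 over all tested genes) passed for 19 of the 31 growth genes and for PIF4 and PAO2. A value above 0 means a more positive log2 change in pklpif4 against pkl than in pif4 against WT. Above 0 were TAA1 (0.64), IAA19 (1.06), IAA29 (1.12), HB4 (1.38), HAT3 (0.45), HFR1 (0.71), ST2A (1.12), PRE1 (1.16), PRE6 (1.304), SAUR20 (0.54), SAUR21 (0.60), EXPA8 (1.22) and LNG2 (0.19). Below 0 were YUC9 (-1.21), CYP79B2 (-0.44), HB-2 (-0.27), HAT1 (-0.32), XTH15 (-0.61) and ACS8 (-1.13). The adjusted p of these genes ran from 2.08e-28 to 0.0344. PIF4 rose more in the pkl background (difference 0.38), and PAO2 less (difference -0.56).

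The same difference passed for 22 of 22 photosystem genes, 19 of 21 chlorophyll genes, 20 of 29 root markers, 17 of 21 nitrate, sulfate and phosphate genes, 18 of 22 aliphatic glucosinolate genes and 12 of 16 seed genes. The share over all tested genes was 31.9%.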

How the results depend on the processing

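The counts of genes called higher and lower stayed within 1.5 times of the reported counts in every alternative, from 2789 to 4494 higher and from 2667 to 3617 lower. The 2-fold counts, 859 and 516, fell to 222 and 169 when a mean of 5 CPM was required, which tests fewer genes, and to 209 and 193 on log2(FPKM + 1), where the pseudocount shrinks changes of low genes. Leaving out 1 library gave 790 to 833 higher and 494 to 516 lower at 2-fold, and 3105 to 3206 higher and 3143 to 3237 lower in all. The difference between backgrounds passed for 19 of the 31 growth genes with RLE factors and with the replicate block, and for 17 with library totals.

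Same-numbered WT and pif4-labelled libraries did not visibly deviate together (correlations -0.027 to 0.0071, against -0.026 to 0.046 for different numbers). Much of the deviation within a group is counting noise, so this cannot show whether same-numbered samples were grown or prepared together. With the replicate block 3557 genes were called higher and 3563 lower, with 849 and 508 at 2-fold.

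Of 191 called genes named in the text, 183 kept their call and direction in all 15 alternatives in which they had a value, 0 changed direction, and 8 lost the call in at least 1. Many of these genes were named for a small p or a large change in these libraries. Their share therefore does not describe called genes in general. On log2(FPKM + 1) it was lost for YUC2, LNG1, CYP81F2 and SULTR2;1, and with library totals for LNG1. Leaving out 1 library gave log2 changes of both signs for uncalled genes, TAA1 (-0.078 to 0.11), AT2G42975 (-0.036 to 0.091), AT2G42990 (-0.032 to 1.39), ATPMEPCRD (-0.087 to 0.13) and WOX5 (-0.21 to 1.71). Levels under 1 CPM rest on few fragments, and their changes are imprecise.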
